A study of Mus musculus with 15 samples.

Results

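The fatty acid oxidation genes are the enzymes, carriers and 1 transcription factor with which mitochondria and peroxisomes break down fatty acids. The members were taken from a list of 33 genes. A member was measured where a probe set names that gene alone, and a gene with several such probe sets was represented by the brightest one by its mean over all arrays. This left 31 of the 33 genes, among 22180 measured genes in all. The 2 genes without such a probe set are Cpt1b, on a probe set that names several genes, and Acsl1, and both were not analysed here.

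The study measured total RNA from the aorta of DBA/2NCrl mice that were 8 weeks old when the diet began. Over 5 days the mice ate a diet rich in phosphate (HPD), with 20.2 g phosphorus per kg, or standard chow (SCD), with 7.0 g. The groups were abdominal aorta on HPD (4 arrays), abdominal aorta on SCD (4 arrays), thoracic aorta on HPD (3 arrays) and thoracic aorta on SCD (4 arrays), 1 biological replicate per array. All groups share the strain, and none carries a transgene or a drug by the labels. The labels do not say whether an array holds 1 mouse or a pool, nor do they tie the segments of a mouse together, so p-values measure the spread between these samples.

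Fatty acids enter the mitochondrion as carnitine esters and are then shortened in a repeating spiral of dehydrogenation, hydration, dehydrogenation and thiolysis. The electrons of the first step pass through the electron transfer flavoprotein to the respiratory chain, and very long or branched chains are first shortened in peroxisomes. Peroxisome proliferator-activated receptor alpha, encoded by Ppara, is the transcription factor best known for switching these genes on. The pathway is very active in heart muscle, liver and brown fat, and in mice brown fat lies against the thoracic aorta.

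Each value below is the log2 intensity of a gene's probe set on 1 array, as deposited and each change is a difference of group means on that log2 scale. Levels of different genes are not compared, because each probe set has its own response. A gene counts as called where limma, fitted to the 4 groups, gave a p under 0.05 after Benjamini-Hochberg adjustment across the 22180 genes. Smooth muscle markers, which define the labelled tissue, were present on all arrays: Myh11, the smooth muscle myosin heavy chain, lay at 11.28 to 11.49 on thoracic and 10.35 to 11.13 on abdominal arrays. The mean of 10 smooth muscle markers was 8.93 to 9.26 on thoracic and 8.01 to 8.68 on abdominal arrays.

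Several arrays also carried transcripts of other cell types. Abdominal HPD arrays 3 and 4 held hepatocyte transcripts, with the albumin gene Alb at 5.24, 5.44, 10.97 and 12.36 on abdominal HPD arrays 1 to 4 and at 5.03 to 5.97 on abdominal SCD arrays. Alb was 7.80, 5.33, 5.45 and 9.27 on thoracic SCD arrays 1 to 4, and 5.74, 5.62 and 5.24 on thoracic HPD arrays. The mean of 14 hepatocyte markers was 5.90 on thoracic SCD array 1 and 6.44 on array 4. Of 12 markers of T and NK cells, the mean was 7.80 to 8.72 on 5 abdominal arrays (HPD 1, 2 and 4, SCD 2 and 4) and 5.59 to 6.35 on the other 10. Cardiac muscle markers averaged 7.34 to 8.01 on thoracic and 5.74 to 6.01 on abdominal arrays, and markers of sympathetic neurons and chromaffin cells averaged 5.52 to 6.69 on thoracic and 7.70 to 9.04 on abdominal arrays. Skeletal muscle markers varied within groups, from 5.38 to 7.25 on abdominal HPD, 5.45 to 7.79 on abdominal SCD, 5.74 to 7.42 on thoracic HPD and 5.37 to 6.36 on thoracic SCD arrays.

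In the abdominal aorta, most of the pathway was lower on HPD than on SCD. Of the 31 measured members, 24 were called lower on HPD and 0 were called higher, where over all genes 5.06% were called lower and 1.95% higher. The median change of the members was -0.83, against -0.01 over all 22180 genes, and single members ran from -1.40 (Acaa2) to 0.23 (Mlycd). For 24 members every abdominal HPD array lay below every abdominal SCD array, which held for 7.75% of all genes. In 16 members all 4 abdominal HPD arrays lay below all other 11 arrays of the series, a pattern found in 3.41% of all genes. In whole tissue, fewer cells of a type and less RNA per cell cannot be told apart. At an unadjusted p under 0.05, 26 members were lower and 1, Mlycd, was higher, where over all genes 11.8% were lower and 8.2% higher.

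In the thoracic aorta the same direction was seen with fewer calls. Of the members, 8 were called lower on HPD and 0 higher, where over all genes 1.08% were called lower and 1.39% higher. These were Cpt2, Hadha, Acaa2, Eci1, Abcd3, Etfdh, Acadvl and Acads. The median change was -0.46, against -0.01 over all genes, and 21 members were lower at an unadjusted p under 0.05, as were 6.7% of all genes. For 17 members every thoracic HPD array lay below every thoracic SCD array, which held for 6.67% of all genes. Only Cpt2 and Hadha kept their call whichever of the 7 thoracic arrays was left out. The count fell to 2 without HPD replicate 3, without SCD replicate 1 or without SCD replicate 2, was 5 without HPD replicate 2 or without SCD replicate 4, and reached 12 without HPD replicate 1. It was 1 with only the thoracic groups in the fit.

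**Figure D1:**
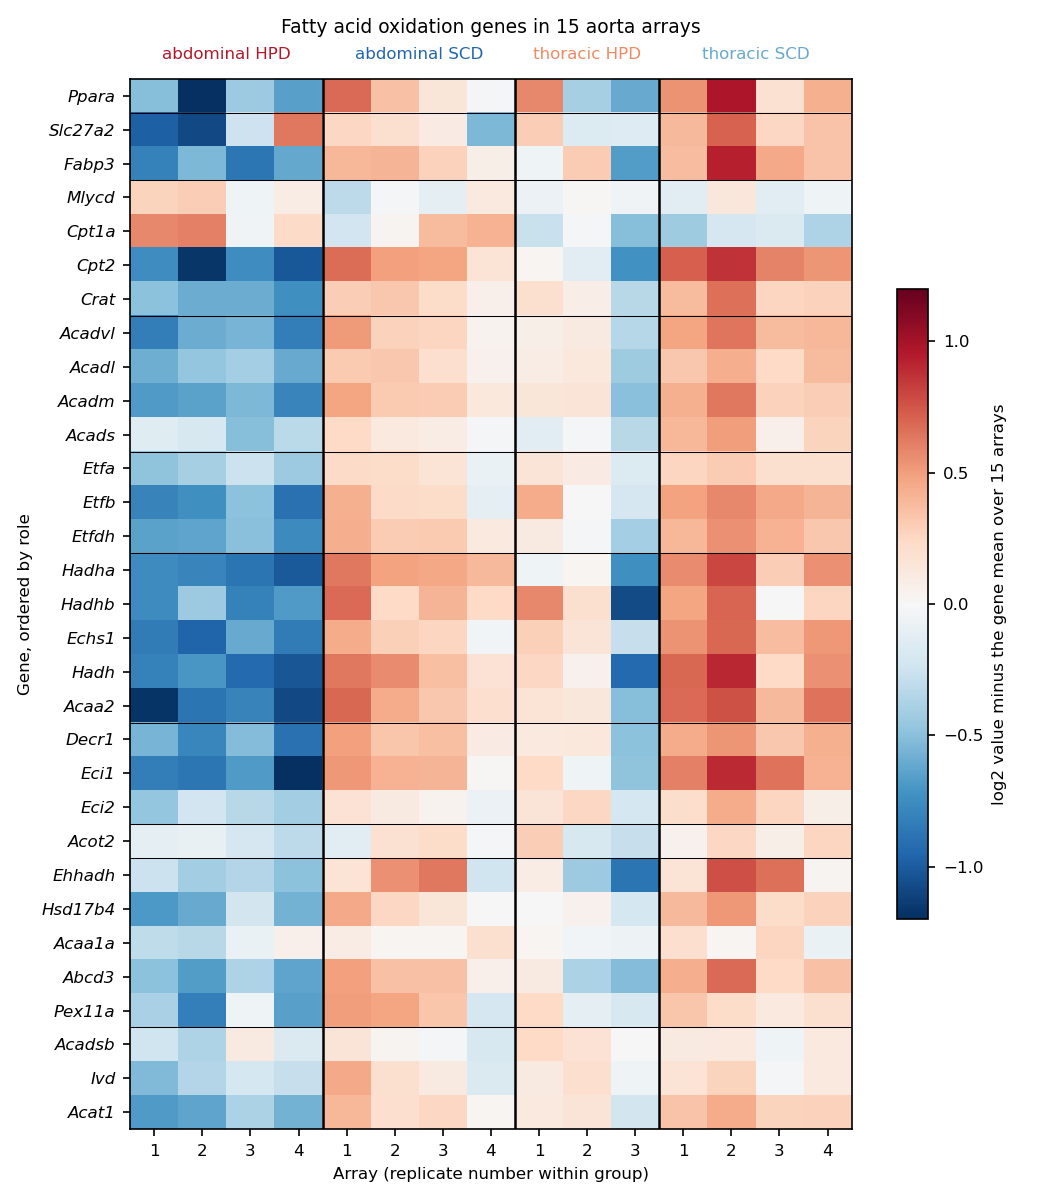
Each row is 1 of the 31 measured fatty acid oxidation genes, ordered by role, and each column 1 of the 15 arrays by group and replicate number; colour gives the log2 intensity minus the gene's mean over all arrays. The 4 abdominal HPD arrays are low for most genes, and thoracic HPD array 3 is the lowest thoracic HPD array for 29 of the 31.

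**Figure D2:**
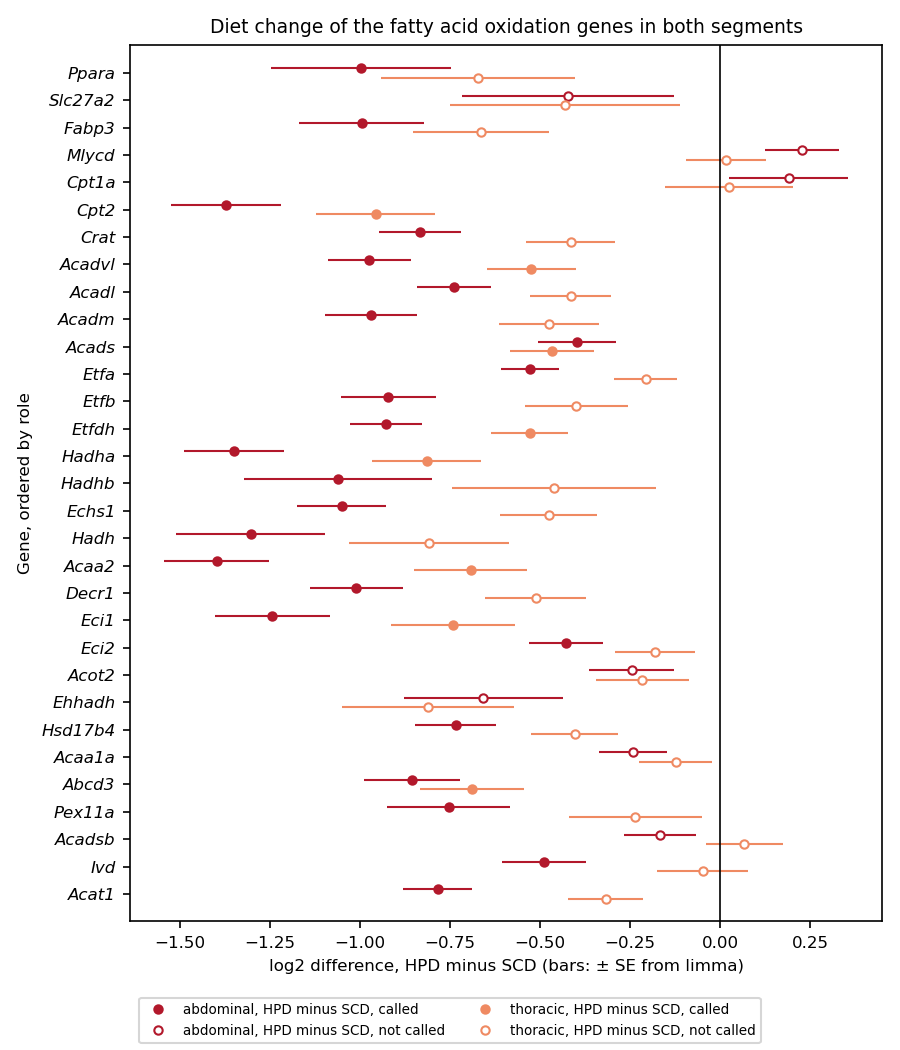
Points give the log2 difference, HPD minus SCD, of each member in the abdominal and the thoracic segment, with bars of 1 SE from limma; filled points passed an adjusted p under 0.05. In the abdominal segment 24 points are filled and all of them lie below 0, in the thoracic segment 8.

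The transcription factor Ppara was lower on HPD in the abdominal aorta. Its values were 7.01, 6.28, 7.08 and 6.86 on abdominal HPD arrays and 8.20, 7.86, 7.66 and 7.50 on abdominal SCD arrays. All HPD values lay below all SCD values, and the change was -0.996 ± 0.25 (SE, adjusted p = 0.0243), 1.99-fold lower on HPD. In the thoracic aorta the values were 8.09, 7.11 and 6.91 on HPD and 8.05, 8.48, 7.69 and 7.94 on SCD, and HPD array 1 overlapped the chow arrays. The thoracic difference was -0.67 ± 0.27 (SE, adjusted p = 0.261), which did not pass. The abdominal call was lost when any of 4 of the 8 abdominal arrays was left out. Without the arrays rich in hepatocyte transcripts, which leaves abdominal HPD arrays 1 and 2, the abdominal change was -1.16 with an adjusted p of 0.0545.

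Of the uptake and activation genes, 1 of 2 was called in the abdominal aorta. Fabp3, the muscle-type fatty acid binding protein that carries fatty acids inside the cell, was 9.59, 9.86, 9.53 and 9.78 on abdominal HPD arrays and 10.80, 10.81, 10.67 and 10.46 on abdominal SCD arrays. It fell on HPD without overlap, by 0.995 ± 0.17 (SE, adjusted p = 0.00245). The thoracic difference was -0.66 ± 0.19 (SE, adjusted p = 0.0822). A dimmer probe set of Fabp3 gave -0.45 in the abdominal and -0.14 in the thoracic segment.

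Slc27a2, which encodes a fatty acid transporter with very-long-chain acyl-CoA synthetase activity and is abundant in liver, was 8.18, 8.08, 8.91 and 9.79 on abdominal HPD arrays and 9.41, 9.35, 9.26 and 8.62 on abdominal SCD arrays. The HPD arrays were split, with arrays 1 and 2 below every chow array and array 4 above them all. The difference over all arrays was -0.42 ± 0.30 (SE, adjusted p = 0.475). The 2 highest abdominal HPD values belong to the 2 arrays with hepatocyte transcripts. Without those arrays and thoracic SCD array 4, the third array with raised hepatocyte markers, the abdominal difference was -1.03 with an adjusted p of 0.0139. That fit was added after seeing the data and keeps only abdominal HPD arrays 1 and 2, the lowest for this gene, so a larger fall had to follow. The part of hepatocyte transcripts in the full comparison was not tested.

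**Figure D3:**
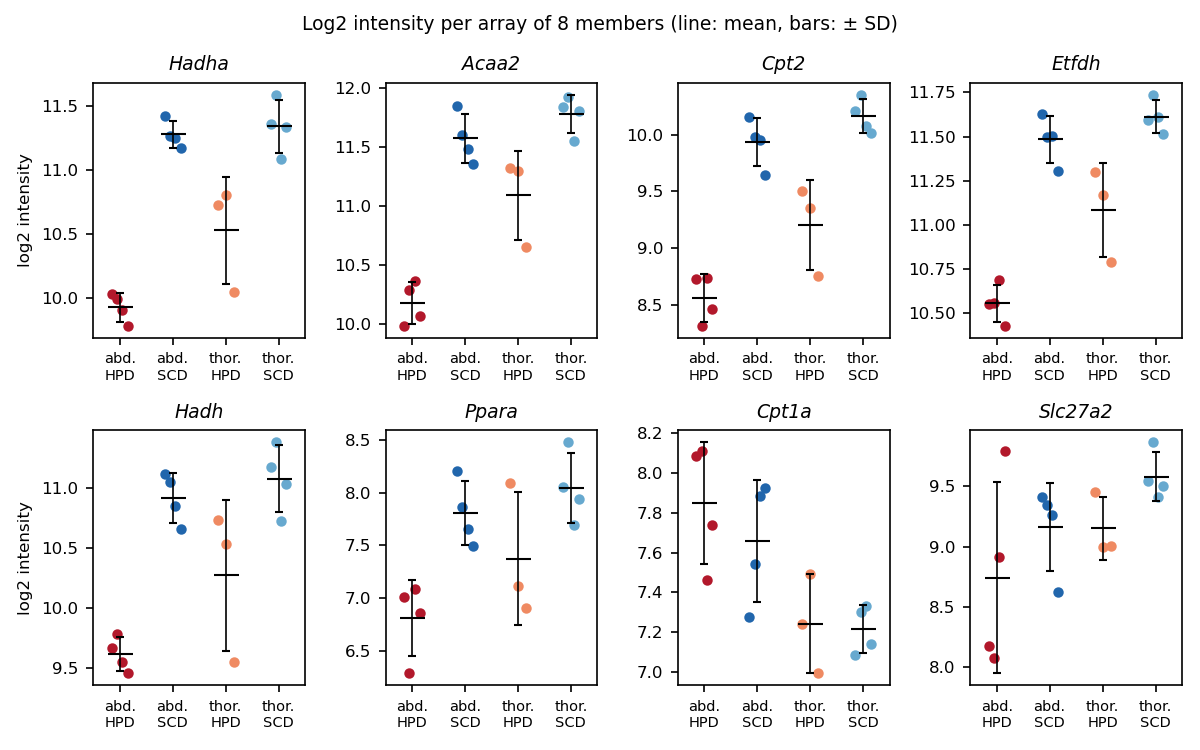
Log2 intensity of 8 members on every array, by segment and diet; points are arrays, horizontal lines group means and bars 1 SD. Hadha, Acaa2, Cpt2 and Etfdh show HPD arrays below SCD arrays in both segments, Cpt1a shows overlapping diets, and Slc27a2 shows a wide spread among abdominal HPD arrays.

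In the carnitine shuttle Cpt1a of the outer step and Cpt2 of the inner step differed in their calls. Cpt1b was not analysed, so the outer step was read from Cpt1a alone. Cpt2, the inner-membrane carnitine palmitoyltransferase that returns the acyl group to coenzyme A, was 8.73, 8.32, 8.74 and 8.47 on abdominal HPD arrays and 10.15, 9.98, 9.96 and 9.65 on abdominal SCD arrays. On thoracic arrays it was 9.50, 9.36 and 8.76 on HPD and 10.20, 10.35, 10.07 and 10.01 on SCD. No HPD value reached any SCD value in either segment. The abdominal change was -1.37 ± 0.15 (SE, adjusted p = 9.29e-05) and the thoracic change -0.96 ± 0.16 (SE, adjusted p = 0.00717), which are 2.59-fold lower and 1.94-fold lower.

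Cpt1a, the outer-membrane carnitine palmitoyltransferase of liver and many other tissues, was 8.08, 8.11, 7.46 and 7.74 on abdominal HPD arrays and 7.28, 7.54, 7.89 and 7.93 on abdominal SCD arrays. In the thoracic segment it was 7.24, 7.49 and 6.99 on HPD and 7.09, 7.30, 7.33 and 7.14 on SCD. The diets overlapped in both segments. The abdominal difference was 0.19 ± 0.16 (SE, adjusted p = 0.578), with a 95% interval of -0.16 to 0.54, and the thoracic one 0.03 ± 0.18 (SE, adjusted p = 0.976), with an interval of -0.35 to 0.41. Both intervals stop short of the Cpt2 change in the same segment, and the sign of the small Cpt1a differences varied with the processing.

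Crat, the carnitine acetyltransferase that exports short acyl groups, was 8.30, 8.20, 8.20 and 8.06 on abdominal HPD arrays and 9.09, 9.13, 9.02 and 8.86 on abdominal SCD arrays. It fell on HPD by 0.83 ± 0.11 (SE, adjusted p = 3.96e-04) in the abdominal segment, while the thoracic difference was -0.41 ± 0.12 (SE, adjusted p = 0.0981). A second Crat probe set gave -0.98 in the abdominal and -0.49 in the thoracic segment. Mlycd, the malonyl-CoA decarboxylase whose substrate blocks the outer carnitine step, was 7.11, 7.14, 6.79 and 6.94 on abdominal HPD and 6.53, 6.83, 6.74 and 6.96 on abdominal SCD arrays. Those groups overlapped, and the difference of 0.23 ± 0.10 (SE, adjusted p = 0.227) did not pass.

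The sequences before the starts of 5 members are shown because 4 of these genes fell in the abdominal aorta and Cpt1a was not called. They come from RefSeq (GRCm38.p6), and each is the 250 bases before the gene's start on the gene's own strand, 5′ to 3′. Capitals mark the nuclear receptor half-site AGGTCA, the GC box GGGCGG and the NRF1 site, which is GCGCA followed at once by its reverse complement, on either strand, so that a site on the opposite strand is printed as its reverse complement. Hadha lies at chr5:30154981-30155230 (minus strand), Acadm at chr3:153944644-153944893 (minus), Etfdh at chr3:79628768-79629017 (minus), Cpt2 at chr4:107923590-107923839 (minus) and Cpt1a at chr19:3323051-3323300 (plus).
Hadha: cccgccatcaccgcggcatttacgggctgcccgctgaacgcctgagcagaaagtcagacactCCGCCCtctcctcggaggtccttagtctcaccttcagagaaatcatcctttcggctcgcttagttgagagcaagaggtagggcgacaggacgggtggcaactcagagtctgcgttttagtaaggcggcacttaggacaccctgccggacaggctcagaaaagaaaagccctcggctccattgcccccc
Acadm: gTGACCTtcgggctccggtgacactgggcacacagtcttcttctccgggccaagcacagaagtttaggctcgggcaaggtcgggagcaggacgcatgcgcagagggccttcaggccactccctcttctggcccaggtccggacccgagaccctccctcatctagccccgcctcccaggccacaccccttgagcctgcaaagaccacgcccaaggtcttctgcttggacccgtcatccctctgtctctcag
Etfdh: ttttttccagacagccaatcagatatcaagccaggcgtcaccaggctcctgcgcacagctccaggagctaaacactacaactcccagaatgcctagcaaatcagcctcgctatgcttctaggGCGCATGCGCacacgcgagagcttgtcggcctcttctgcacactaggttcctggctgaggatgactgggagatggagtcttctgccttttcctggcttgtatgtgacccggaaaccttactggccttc
Cpt2: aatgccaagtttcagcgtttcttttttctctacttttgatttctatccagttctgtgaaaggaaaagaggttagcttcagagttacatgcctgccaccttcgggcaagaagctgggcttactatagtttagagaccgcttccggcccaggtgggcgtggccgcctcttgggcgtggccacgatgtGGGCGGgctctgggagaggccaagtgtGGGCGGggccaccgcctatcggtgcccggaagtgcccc
Cpt1a: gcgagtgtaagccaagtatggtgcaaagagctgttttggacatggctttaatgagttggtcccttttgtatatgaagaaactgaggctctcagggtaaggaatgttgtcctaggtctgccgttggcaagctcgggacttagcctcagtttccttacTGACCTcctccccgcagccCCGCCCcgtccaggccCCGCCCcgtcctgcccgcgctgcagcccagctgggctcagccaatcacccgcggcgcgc

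Motifs were searched on both strands in the RefSeq windows that run from 250 bases before to 50 bases after a gene's start, for 26 of the 31 members and 27025 genes in all. A direct repeat of the half-site AGGTCA with 1 base between the copies, the classical binding sequence of Ppara with its retinoid partner, was in 0 of the 26 windows, and in 0.0444% of all windows. The same repeat of AGGNCA, where N is any base, was also in 0, against 0.381% of all windows. The half-site AGGTCA was in 5 (Acadm, Acadvl, Cpt1a, Echs1 and Slc27a2), which is 19.2% of the members and 16% of all windows. The longer AAGGTCA, which contains that half-site, was in 2, Acadm and Slc27a2, which is 7.69% of the members and 4.66% of all windows.

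GGGCGG was in 18 member windows, 69.2% against 35.9% of all windows, which include genes not measured here. Hadha and Hadhb are counted separately, although their windows overlap and the box of Hadha is also a box of Hadhb. Cpt2, which fell, and Cpt1a, which was not called, each held GGGCGG at 3 positions, 2 of them in the printed stretch. The NRF1 site was in 2 windows, those of Etfdh and Ppara, 7.69% against 0.977% of all windows, and in Etfdh it begins at position -128 from the gene's start. These matches are a description of letters in a short window and not of binding.

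All 4 mitochondrial acyl-CoA dehydrogenases for straight chains, which carry out the first step of the spiral, fell in the abdominal aorta. Their median change was -0.85. Acadm, the medium-chain enzyme, was 10.75, 10.78, 10.89 and 10.64 on abdominal HPD arrays and 11.90, 11.74, 11.73 and 11.56 on abdominal SCD arrays. Its HPD values also lay below every thoracic value, and it fell by 0.97 ± 0.13 (SE, adjusted p = 2.98e-04).

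Acadvl, the very-long-chain enzyme, fell by 0.97 ± 0.11 (SE, adjusted p = 1.50e-04) in the abdominal and by 0.52 ± 0.12 (SE, adjusted p = 0.0377) in the thoracic segment. Acadl, the long-chain enzyme, fell by 0.74 ± 0.10 (SE, adjusted p = 4.69e-04) in the abdominal segment, with a thoracic difference of -0.41 ± 0.11 (SE, adjusted p = 0.0684). The short-chain enzyme Acads was 7.08, 7.03, 6.71 and 6.91 on abdominal HPD arrays, 7.46, 7.34, 7.31 and 7.21 on abdominal SCD arrays, 7.10, 7.20 and 6.89 on thoracic HPD arrays and 7.62, 7.73, 7.29 and 7.49 on thoracic SCD arrays. Every HPD value of Acads lay below every SCD value, but the change was small: -0.40 ± 0.11 (SE, adjusted p = 0.0368) in the abdominal and -0.47 ± 0.12 (SE, adjusted p = 0.0490) in the thoracic segment. The abdominal Acads call was lost on leaving out any of 6 of the 8 abdominal arrays, and without the arrays rich in hepatocyte transcripts (-0.28, adjusted p = 0.246).

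The 3 genes that pass on the electrons of that step were also lower. Etfdh, the ubiquinone oxidoreductase of the inner membrane, was 10.55, 10.56, 10.69 and 10.43 on abdominal HPD arrays and 11.63, 11.50, 11.50 and 11.31 on abdominal SCD arrays. On thoracic arrays it was 11.30, 11.17 and 10.79 on HPD and 11.59, 11.74, 11.61 and 11.51 on SCD. All 7 HPD arrays lay below all 8 SCD arrays, and the change was -0.93 ± 0.10 (SE, adjusted p = 7.37e-05) in the abdominal and -0.53 ± 0.11 (SE, adjusted p = 0.0178) in the thoracic segment. Etfa and Etfb encode the alpha and beta subunits of the flavoprotein. In the abdominal segment Etfa fell by 0.53 ± 0.08 (SE, adjusted p = 8.86e-04) and Etfb by 0.92 ± 0.13 (SE, adjusted p = 5.43e-04). Their thoracic differences were -0.21 ± 0.09 (SE, adjusted p = 0.296) and -0.40 ± 0.14 (SE, adjusted p = 0.191).

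All 5 members of the later steps of the mitochondrial spiral fell in the abdominal aorta, with a median change of -1.30. Hadha, the alpha subunit of the trifunctional protein that does the hydration and second dehydrogenation of long chains, was 10.03, 9.998, 9.91 and 9.78 on abdominal HPD arrays and 11.42, 11.27, 11.25 and 11.17 on abdominal SCD arrays. Thoracic arrays gave 10.73, 10.81 and 10.05 on HPD and 11.36, 11.59, 11.09 and 11.34 on SCD. Every HPD array lay below every SCD array. The change was -1.35 ± 0.14 (SE, adjusted p = 6.37e-05) in the abdominal and -0.81 ± 0.15 (SE, adjusted p = 0.0113) in the thoracic segment, 2.55-fold lower and 1.76-fold lower.

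Hadhb encodes the beta subunit of the same protein, the thiolase. The genes lie head to head on chromosome 5 with 273 bases between their starts, so that their RefSeq windows share 228 bases, and the whole stretch printed for Hadha above lies between them. Hadhb was 7.04, 7.35, 6.98 and 7.11 on abdominal HPD arrays and 8.47, 8.03, 8.19 and 8.02 on abdominal SCD arrays, with no overlap and a change of -1.06 ± 0.26 (SE, adjusted p = 0.0223). The abdominal call of Hadhb was lost on leaving out any of 4 abdominal arrays and without the arrays rich in hepatocyte transcripts (-0.99, adjusted p = 0.119).

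On thoracic arrays Hadhb was 8.36, 7.98 and 6.71 on HPD and 8.26, 8.49, 7.79 and 8.04 on SCD. Thoracic HPD array 3 stood far below the other HPD arrays, which lay within the chow range. The thoracic difference was -0.46 ± 0.28 (SE, adjusted p = 0.538), and 0.03 without that array.

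Acaa2, the mitochondrial thiolase that splits off acetyl-CoA, was 9.98, 10.28, 10.36 and 10.07 on abdominal HPD arrays and 11.85, 11.60, 11.48 and 11.36 on abdominal SCD arrays. On thoracic arrays it was 11.32, 11.29 and 10.65 on HPD and 11.84, 11.93, 11.55 and 11.81 on SCD. The 4 abdominal HPD values were the lowest of the series and the 3 thoracic HPD values came next. Its abdominal change of -1.40 ± 0.15 (SE, adjusted p = 6.55e-05) was the largest fall among the members, 2.63-fold lower, and its thoracic change was -0.69 ± 0.16 (SE, adjusted p = 0.0299).

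Echs1, the short-chain enoyl-CoA hydratase, fell in the abdominal segment by 1.05 ± 0.12 (SE, adjusted p = 1.51e-04), and Hadh, the short- and medium-chain hydroxyacyl-CoA dehydrogenase, by 1.30 ± 0.21 (SE, adjusted p = 0.00108). Their thoracic differences of -0.47 ± 0.13 (SE, adjusted p = 0.0807) and -0.81 ± 0.22 (SE, adjusted p = 0.0738) did not pass. Thoracic HPD array 3 had Hadh at 9.55, below the other thoracic HPD arrays at 10.73 and 10.54 and within the range of the abdominal HPD arrays.

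The 3 auxiliary enzymes, which prepare unsaturated fatty acids for the spiral, all fell in the abdominal aorta. Eci1, the mitochondrial enoyl-CoA isomerase, was 8.30, 8.26, 8.44 and 7.88 on abdominal HPD arrays and 9.64, 9.54, 9.53 and 9.14 on abdominal SCD arrays. It fell by 1.24 ± 0.16 (SE, adjusted p = 2.24e-04) in the abdominal and by 0.74 ± 0.17 (SE, adjusted p = 0.0330) in the thoracic segment, without overlap in either. Decr1, the dienoyl-CoA reductase, fell by 1.01 ± 0.13 (SE, adjusted p = 2.42e-04) in the abdominal segment, and its thoracic difference was -0.51 ± 0.14 (SE, adjusted p = 0.0723). Eci2, a second isomerase, changed least of these enzymes, with -0.43 ± 0.10 (SE, adjusted p = 0.0195) in the abdominal and -0.18 ± 0.11 (SE, adjusted p = 0.538) in the thoracic segment, and its abdominal call was lost without any of 3 abdominal arrays or without the arrays rich in hepatocyte transcripts (adjusted p = 0.0800). The thioesterase Acot2, which cleaves acyl-CoA in mitochondria, was not called in either segment, at -0.25 ± 0.12 (SE, adjusted p = 0.267) and -0.22 ± 0.13 (SE, adjusted p = 0.518). Whether Acot2 and Eci2 share signal with their near-identical neighbours in sequence, such as Acot1 and Eci3, was not tested.

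Among the 5 peroxisomal genes, 3 fell in the abdominal aorta. Abcd3, the membrane transporter that brings fatty acids into peroxisomes, was 9.21, 9.04, 9.33 and 9.07 on abdominal HPD arrays and 10.20, 10.06, 10.06 and 9.77 on abdominal SCD arrays. Its thoracic values were 9.82, 9.33 and 9.18 on HPD and 10.14, 10.39, 9.94 and 10.06 on SCD. The diets did not overlap within either segment, and Abcd3 changed by -0.86 ± 0.13 (SE, adjusted p = 9.78e-04) in the abdominal and -0.69 ± 0.14 (SE, adjusted p = 0.0206) in the thoracic segment.

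Hsd17b4, the D-bifunctional enzyme of peroxisomal oxidation, fell in the abdominal segment by 0.73 ± 0.11 (SE, adjusted p = 8.98e-04), with a thoracic difference of -0.40 ± 0.12 (SE, adjusted p = 0.103). Pex11a, which takes part in peroxisome division, was 7.40, 6.96, 7.73 and 7.13 on abdominal HPD arrays and 8.28, 8.25, 8.11 and 7.57 on abdominal SCD arrays. It fell by 0.75 ± 0.17 (SE, adjusted p = 0.0134) although HPD array 3 exceeded the lowest chow array, and the call was lost without either of 2 arrays.

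Ehhadh, the L-bifunctional enzyme of peroxisomes and a classical Ppara target in rodent liver, was 7.32, 7.17, 7.23 and 7.09 on abdominal HPD arrays and 7.75, 8.13, 8.22 and 7.34 on abdominal SCD arrays. On thoracic arrays it was 7.67, 7.15 and 6.70 on HPD and 7.74, 8.35, 8.24 and 7.61 on SCD. The abdominal diets did not overlap and the thoracic ones did, by a single array. Neither segment passed alone (-0.66 ± 0.22 (SE, adjusted p = 0.0943) and -0.81 ± 0.24 (SE, adjusted p = 0.0939)), but the average over both segments did, with a change of -0.73 ± 0.16 (SE, adjusted p = 0.00767).

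Acaa1a, a peroxisomal thiolase, was 8.31, 8.28, 8.53 and 8.68 on abdominal HPD arrays and 8.70, 8.63, 8.63 and 8.80 on abdominal SCD arrays. Arrays 3 and 4 on HPD, those with hepatocyte transcripts, were the highest of their group. The difference was -0.24 ± 0.09 (SE, adjusted p = 0.157) over all arrays and -0.39 (adjusted p = 0.0184) without the arrays rich in hepatocyte transcripts. That fit was added after seeing the data and drops abdominal HPD arrays 3 and 4, so a larger fall had to follow. Whether the close relative Acaa1b shares signal with Acaa1a was not tested.

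The enzymes at the edge of the pathway varied. Acat1, the mitochondrial acetoacetyl-CoA thiolase of ketone and isoleucine breakdown, was 9.75, 9.80, 10.04 and 9.86 on abdominal HPD arrays and 10.83, 10.63, 10.68 and 10.45 on abdominal SCD arrays. It fell by 0.78 ± 0.10 (SE, adjusted p = 1.68e-04) with no overlap. Ivd, the isovaleryl-CoA dehydrogenase of leucine breakdown, fell in the abdominal segment by 0.49 ± 0.12 (SE, adjusted p = 0.0183), a call lost without either of 2 arrays, and its thoracic difference was -0.05 ± 0.13 (SE, adjusted p = 0.937). Acadsb, the dehydrogenase for short branched chains, showed -0.17 ± 0.10 (SE, adjusted p = 0.386) in the abdominal and 0.07 ± 0.11 (SE, adjusted p = 0.876) in the thoracic segment, and its diets overlapped in both.

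Averaged over both segments, 24 members were called lower on HPD and 0 higher, where 6.18% of all genes were called lower and 4.53% higher. The average adds Ehhadh to the abdominal calls and drops Ivd (-0.27 ± 0.09 (SE, adjusted p = 0.0589)). Of the members, 28 were lower on HPD in both segments by sign, as were 34.2% of all genes. All 7 HPD arrays lay below all 8 SCD arrays for 5 members, Hadha, Acaa2, Cpt2, Etfdh and Acads, a pattern of 1.12% of all genes.

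The diet change was not shown to differ between the segments for any member. In the limma test of that difference, thoracic change minus abdominal change, 0 of 31 members and 0% of all genes were called, and the lowest adjusted p among members was 0.875. For 26 members the thoracic difference lay above the abdominal one, which held for 52.6% of all genes. At an unadjusted p under 0.05, 13 members had a higher difference and 0 a lower one, against 3.63% and 1.85% of all genes. The member with the greatest gap was Acaa2, at 0.70 ± 0.21 (SE, adjusted p = 0.875).

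On chow the segments did not differ in any called member. Of the 31 members 0 were called between thoracic and abdominal SCD arrays, where limma called 4.78% of all genes in either direction, and the lowest adjusted p of a member was 0.148. At an unadjusted p under 0.05, Echs1 and Etfb were higher in the thoracic segment and Cpt1a was lower. Over all genes 10.3% were higher and 9.17% lower at that threshold. The median difference of the members, thoracic minus abdominal, was 0.13, against 0.03 over all genes.

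On HPD most members were higher in the thoracic segment. Of these, 17 were called higher in the thoracic than in the abdominal segment, where 7.57% of all genes were, and 1, Cpt1a, was called lower, where 6.25% were. The median difference was 0.53, against 0.04 over all genes. The widest was that of Acaa2, at 0.91 ± 0.16 (SE, adjusted p = 0.00183), followed by Echs1 at 0.87 ± 0.13 (SE, adjusted p = 0.0010) and Etfb at 0.81 ± 0.14 (SE, adjusted p = 0.00209).

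Cpt1a averaged 7.24 ± 0.25 on thoracic HPD arrays (SD, n = 3) and 7.85 ± 0.31 on abdominal HPD arrays (SD, n = 4), a difference of -0.61 ± 0.18 (SE, adjusted p = 0.0338). For 16 members every thoracic HPD array lay above every abdominal HPD array, as it did for 13.7% of all genes. The count of 18 calls fell to 9 without thoracic HPD replicate 1 and to 10 without thoracic HPD replicate 2. This comparison uses the same HPD arrays as the diet comparisons. The arrays also differed in cardiac muscle markers, whose mean was 7.74 to 8.01 on thoracic HPD and 5.74 to 5.90 on abdominal HPD arrays, and in all 10 smooth muscle markers, called higher in the thoracic segment on HPD. Of the brown fat markers 7 of 12 were called higher in the thoracic segment on HPD (median 0.71) and of the 13 general fat cell markers 6 (median 0.52). Of the T and NK cell markers 10 of 12 were called lower there, and of the sympathetic and chromaffin markers 10 of 11. Their part in the member differences was not tested.

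Within groups, single arrays ran low or high across the members. In the thoracic HPD group, array 3 was the lowest of 3 for 29 of the 31 members, as it was for 34.7% of all genes. Its mean over the members was 8.83, against 9.38 and 9.25 on thoracic HPD arrays 1 and 2. In the abdominal SCD group, array 4 was the lowest for 27 members (28.6% of all genes) and array 1 the highest for 23 (31.6%). Thoracic SCD array 2 was the highest for 26 members (28.4%).

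Fat cell markers moved with the members. The mean of 13 general fat cell markers (among them Adipoq, Plin1, Lep and Retn) was 8.40 to 8.80 on abdominal HPD and 9.28 to 9.72 on abdominal SCD arrays. On thoracic arrays it was 8.88 to 9.28 on HPD and 9.31 to 9.67 on SCD. Of these markers 8 of 13 were called lower on HPD in the abdominal and 2 of 13 in the thoracic segment. Of 12 markers of brown fat cells, 10 were called lower in the abdominal and 5 in the thoracic segment, with median changes of -1.09 and -0.68.

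Their mean was 6.93 to 7.35 on abdominal HPD and 8.18 to 8.56 on abdominal SCD arrays, and 7.57 to 8.07 on thoracic HPD and 8.54 to 8.78 on thoracic SCD arrays. Ucp1, the uncoupling protein that defines brown fat, was 7.01, 9.03, 8.43 and 7.34 on abdominal HPD and 11.83, 11.41, 11.63 and 11.36 on abdominal SCD arrays, and 9.49, 10.32 and 8.84 on thoracic HPD and 11.89, 11.97, 11.68 and 11.70 on thoracic SCD arrays. The brown fat markers were uneven as well. The abdominal change was -2.51 ± 0.22 (SE, adjusted p = 2.43e-05) for Cox7a1, -0.91 ± 0.15 (SE, adjusted p = 0.00126) for Cidea and 0.39 ± 0.12 (SE, adjusted p = 0.0724) for Lhx8. Zic1 was 5.01, 4.84, 4.81 and 4.81 on abdominal HPD and 4.79, 4.83, 4.79 and 4.79 on abdominal SCD arrays. Thoracic HPD array 3, low for the members, was also the lowest thoracic HPD array in both fat cell means. It was the highest in the mean of 12 skeletal muscle markers, at 7.42 against 6.01 and 5.74 on thoracic HPD arrays 1 and 2.

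Within each array, the mean of the members minus the mean of the 13 general fat cell markers was 0.09 ± 0.13 on abdominal HPD and -0.003 ± 0.13 on abdominal SCD arrays (SD, n = 4 each). It was 0.01 ± 0.07 on thoracic HPD (SD, n = 3) and 0.06 ± 0.10 on thoracic SCD arrays (SD, n = 4). The groups overlapped in this difference. The 13 markers were uneven, however: the abdominal change was -2.31 ± 0.19 (SE, adjusted p = 1.53e-05) for Agpat2 and -1.71 ± 0.22 (SE, adjusted p = 2.37e-04) for Plin1, but -0.48 ± 0.12 (SE, adjusted p = 0.0214) for Adipoq, -0.26 ± 0.13 (SE, adjusted p = 0.291) for Pparg and -0.16 ± 0.05 (SE, adjusted p = 0.0627) for Fabp4. The median change of the 13 was -0.53 in the abdominal and -0.20 in the thoracic segment, against -0.83 and -0.46 for the members, so mean and median do not give the same picture. Minus the mean of the brown fat markers it was 1.59 ± 0.13 on abdominal HPD and 1.10 ± 0.06 on abdominal SCD arrays, and 1.31 ± 0.06 on thoracic HPD and 0.97 ± 0.02 on thoracic SCD arrays. Every HPD array lay above every SCD array in the second difference. So the mean of the members fell by less than the mean of the brown fat markers on the log2 scale. The part of fat cell content in the members' change was not tested.

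**Figure D4:**
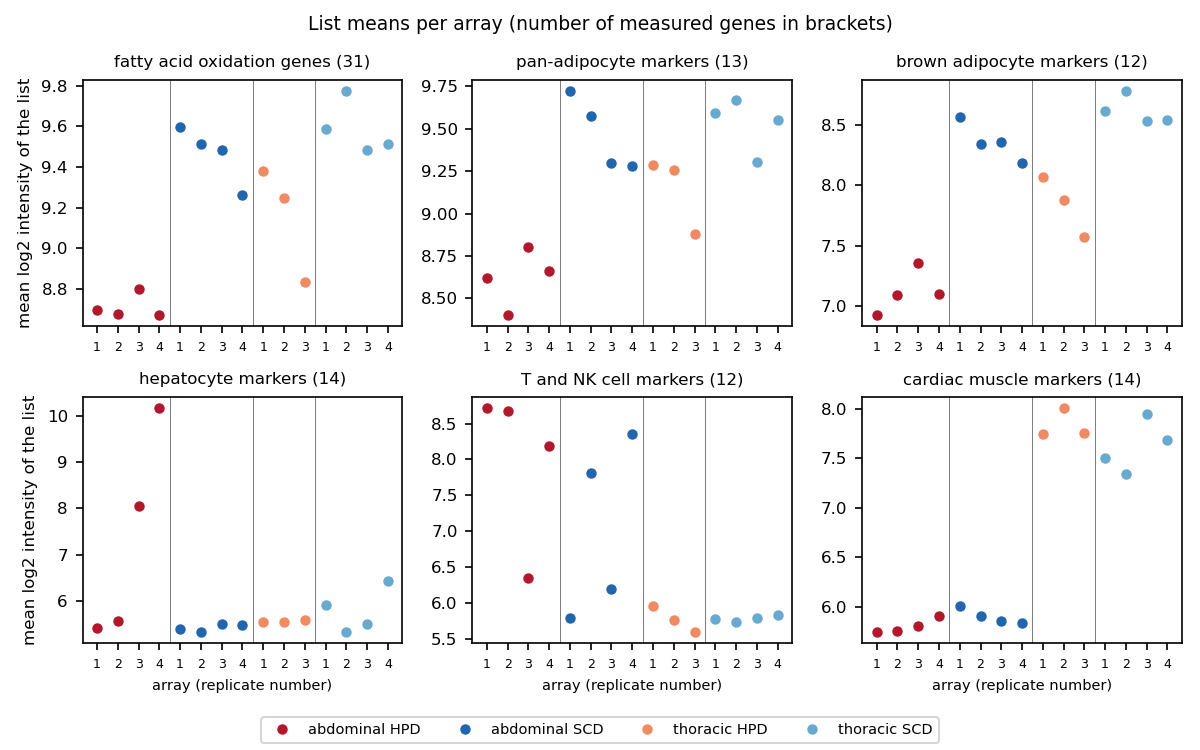
Mean log2 intensity per array of the 31 members and of 5 lists of cell type markers, with arrays along the horizontal axis and colours for the 4 groups. The members and both fat cell lists are low on abdominal HPD arrays and intermediate on thoracic HPD arrays, while hepatocyte markers are highest on abdominal HPD arrays 3 and 4.

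Leaving out arrays with transcripts of other cell types changed some calls. Without the 3 arrays with raised hepatocyte markers, the thoracic count was 4 members, with Abcd3, Acaa2, Acads and Acadvl no longer called. The abdominal count was 22: Acads, Eci2, Hadhb and Ppara were no longer called, and Slc27a2 and Acaa1a were. That fit keeps only abdominal HPD arrays 1 and 2, the lowest for Slc27a2 and Acaa1a, so the larger falls of both had to follow. The part of the smaller number of arrays in the lost calls was not tested. Without the 5 abdominal arrays with raised T and NK cell markers, 1 abdominal HPD and 2 abdominal SCD arrays were left. With 1 HPD array, calls cannot be compared with those of the full fit. All 24 members called with all arrays remained lower by sign in that fit, with changes of -1.43 to -0.44. For all of them but Pex11a the abdominal diets did not overlap, so their sign had to stay whichever arrays were left out. The members' median change was -0.79 in the abdominal segment, against -0.01 over all genes. Their median difference between segments on HPD, thoracic minus abdominal, was 0.40, against 0.03 over all genes.

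The wider pathway was read from 72 measured genes of fatty acid uptake, activation, oxidation, ketone use and control that are not members. The list also takes in genes of branched-chain amino acid and propionate breakdown, of fatty acid synthesis, and Ucp3. In the abdominal segment 24 of the 72 were called lower on HPD and 0 higher, with a median of -0.32 (5.06% of all genes were called lower). In the thoracic segment 5 were called lower and 0 higher, with a median of -0.13 (1.08% of all genes were called lower). Those 5 were Ucp3, Pcca, Mccc1, Acaa1b and Ppargc1b. In the average over both segments 28 of the 72 were called lower and 2 higher, where 6.18% and 4.53% of all genes were.

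Ucp3, a mitochondrial carrier of the uncoupling protein family, averaged 5.85 on abdominal HPD and 7.43 on abdominal SCD arrays, and 5.96 on thoracic HPD and 7.58 on thoracic SCD arrays. It fell in both segments, by 1.58 ± 0.17 (SE, adjusted p = 7.90e-05) in the abdominal and by 1.62 ± 0.18 (SE, adjusted p = 5.81e-04) in the thoracic one. Pcca, a subunit of propionyl-CoA carboxylase, fell by 1.03 ± 0.12 (SE, adjusted p = 1.59e-04) in the abdominal and 0.62 ± 0.13 (SE, adjusted p = 0.0234) in the thoracic segment. Mccc1, a subunit of the leucine-breakdown enzyme methylcrotonyl-CoA carboxylase, fell by 1.005 ± 0.12 (SE, adjusted p = 1.59e-04) and 0.60 ± 0.13 (SE, adjusted p = 0.0236) in the same order of segments.

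Oxct1, which activates ketone bodies, fell in the abdominal segment by 0.54 ± 0.08 (SE, adjusted p = 9.92e-04). The other called genes with the smallest p in that segment were Acot13, Ppargc1b, Acad11 and Acad9, whose changes ran from -0.86 to -0.50. Acad9 and Acad11 encode further acyl-CoA dehydrogenases and Acot13 a thioesterase.

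Of the regulators, both coactivators known for driving mitochondrial genes were lower in the abdominal aorta. Ppargc1a, which is also on the brown fat list, fell by 1.15 ± 0.25 (SE, adjusted p = 0.0107) in the abdominal segment, with a thoracic difference of -0.63 ± 0.27 (SE, adjusted p = 0.308). Ppargc1b fell in both segments, by 0.84 ± 0.15 (SE, adjusted p = 0.00271) in the abdominal and 0.68 ± 0.16 (SE, adjusted p = 0.0385) in the thoracic one. The orphan receptor Esrrg fell by 0.48 ± 0.12 (SE, adjusted p = 0.0288) in the abdominal segment, and its relative Esrra showed -0.09 ± 0.07 (SE, adjusted p = 0.540). Pparg, the receptor that directs fat cell formation, showed -0.26 ± 0.13 (SE, adjusted p = 0.291) and Ppard 0.15 ± 0.12 (SE, adjusted p = 0.530) in the abdominal segment, and neither passed.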

How the data were processed

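The deposited values are 1 log2 intensity per probe set and array, 41345 probe sets on 15 arrays. Per the submitters' processing notes RMA and Partek were used, with no version. The log base is inferred from the range of 1.38 to 13.33. Total RNA was amplified and biotin-labelled with a NuGEN kit, per the labels' protocols. Array medians ran from 5.78 to 5.84. The number of arrays limits the precision, and signal over background is unknown because no detection calls were used here.

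Of the probe sets, 23521 name exactly 1 gene, and the brightest per gene was kept, which left 22180 genes. Groups came from the sample titles. A model of 4 group means over all arrays was fitted over all genes (limma, version 3.58.1, run under R 4.3.3, eBayes with trend, 11 residual degrees of freedom, two-sided, Benjamini-Hochberg over all genes). From it came 6 comparisons: HPD minus SCD in each segment, the average of both, their difference (thoracic minus abdominal), and thoracic minus abdominal on each diet. Tables were read with the data.table package (1.17.8) and Python 3.11.15, and plots drawn with matplotlib 3.10.9. The model code was tested on simulated data.

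The members, the marker lists and the wider list were chosen with earlier results of these data known. Any member could be named. Of the wider list, up to 8 called genes with the smallest p in each diet comparison and 6 regulators could be named, and marker genes as well. Replicate numbers were not used as pairs: correlations of same-numbered arrays' deviations ran from -0.21 to 0.31. The alternatives were another variance prior, removal of genes under the 30th percentile of intensity, only the compared groups, quantile normalization, median centring, array weights, averaging all probe sets of a gene, a replicate block, an adjusted p under 0.1, and each array left out in turn. Fits without the arrays rich in hepatocyte or in lymphocyte transcripts were added after seeing the data. Promoter sequences are from RefSeq (GRCm38.p6), and the 5 members without a window there were not searched.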

Additional observations from a re-analysis of the deposited data

Results flagged for a closer look

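Acadsb, the dehydrogenase for short branched chains, had 1 thoracic SCD array apart from the others of its group. Replicate 3 was at 9.29, while the other 3 thoracic SCD arrays lay between 9.45 and 9.46. The gap was 0.93 of the range of the group, above Dixon's critical value for 4 arrays. Of the 93 groups of 4 arrays examined (31 members in 3 groups) this was the only one, and chance alone gives about 1 in 20. The other 3 values lie unusually close together, and Acadsb was not called in any comparison of diets.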

How the results depend on the processing

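The abdominal count of 24 members stayed within 18 (without SCD replicate 1) to 25 as single arrays were left out, and the average count of 24 within 23 to 26. Without the arrays rich in T and NK cell transcripts 1 abdominal HPD array was left, and the members' median abdominal change was -0.79. The thoracic count of 8 was 1 with only the groups compared, 15 with the replicate block, 16 at an adjusted p under 0.1, 4 without the arrays rich in hepatocyte transcripts, 5 without those rich in T and NK cell transcripts, and 2 to 12 as single arrays were left out. The fit with only the groups compared has fewer arrays to estimate the spread. So has the fit without the arrays rich in T and NK cell transcripts. Those arrays are all abdominal, and the thoracic differences of that fit equal those of the full fit. The 18 calls between segments on HPD ranged from 9 to 20 as single arrays were left out. Without the arrays rich in T and NK cell transcripts, which leaves 1 abdominal HPD array, the members' median difference there was 0.40. The test of the difference between the diet changes and the comparison of segments on SCD called 0 members in every fit. The cause of the other shifts was not tested.

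Signs changed for 5 members, none of them called in the comparison concerned. In the abdominal segment Cpt1a was -0.12 and Acadsb 0.033 without the arrays rich in T and NK cell transcripts. In the thoracic segment Cpt1a was -0.0009 after quantile normalization. As single arrays were left out, thoracic Cpt1a ran from -0.10 to 0.15, Mlycd from -0.013 to 0.079, Ivd from -0.10 to 0.018 and Hadhb from -0.80 to 0.026. Over the settings other than single arrays left out, 305 of 341 member results kept sign and call in the abdominal segment and 301 of 341 in the thoracic one. The replicate block changed no other count by more than 1.5 times, and same-numbered arrays correlated best in 0 of 4 abdominal and 1 of 3 thoracic pairs of diets, and in 2 of 4 pairs of segments on SCD and 2 of 3 on HPD, where all 7 correlations were above 0 (0.016 to 0.12).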

Other observations

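Slc25a20, which encodes the carrier that moves acylcarnitines across the inner mitochondrial membrane between the steps of Cpt1a and Cpt2, is no member and was singled out after its values were seen. It averaged 7.98 on abdominal HPD and 9.37 on abdominal SCD arrays, a fall of 1.39 ± 0.27 (SE, limma adjusted p = 0.00474). On thoracic arrays it averaged 8.49 on HPD and 9.44 on SCD, a difference of -0.95 ± 0.29 (adjusted p = 0.108). Acot1, the cytosolic relative of the member Acot2 and likewise chosen after its values were seen, averaged 7.77 on abdominal HPD and 7.40 on abdominal SCD arrays, and the difference of 0.37 ± 0.22 did not pass (adjusted p = 0.391).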
